A study of Homo sapiens with 4 samples.

Results

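Constitutive γH2AX regions are stretches of the genome where a peak was called in every library of the study, whatever the treatment. All peaks of the 4 deposited lists on chromosomes 1 to 22 and X that overlapped or touched were joined into 123975 regions. The 9128 regions that held at least 1 peak of each list, 7.36% of all regions, were kept as constitutive. The calls themselves chose these regions, so their presence and strength in the 4 libraries are given as a description and were not tested.

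The libraries came from SK-UT-1, an established human line from a leiomyosarcoma of the uterus, a cancer of smooth muscle cells. The groups were 1 µM OTS186935 together with 0.5 µM doxorubicin (the combination), 0.5 µM doxorubicin alone, 1 µM OTS186935 alone, and 0.1% DMSO as the vehicle. OTS186935 inhibits the histone H3 lysine 9 methyltransferase SUV39H2, and doxorubicin poisons topoisomerase II. The series title names a PARP inhibitor as the partner drug, but the sample labels give doxorubicin, and the labels are followed here. Each condition had 1 library from a single cell line, so no difference between conditions has a replicate check and no p-value is given. The sources used here give neither the time of treatment nor the sequencing depth nor an input library, and peak lists hold no expression by which the identity of the line could be checked.

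γH2AX is histone H2A.X phosphorylated in its C-terminal tail by the kinases ATM, ATR and DNA-PK. It spreads over chromatin on both sides of a double-strand break and recruits repair factors. It is also found without added damage, at stalled replication forks, at short or unprotected telomeres and at some gene starts.

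The upstream sequences below are of genes named in the results that follow, and they are not the top of a ranking. MEI4, SPAG6, SPO11, ZSCAN12 and CATSPERT are among the leading gene-end regions, and ELAVL4 and SYT1 come from the neuronal list. The gene-end regions ranked highest, at PSKH2, SCAF4 and SRPRB, are not printed. Each is the 250 bases before an annotated start of the gene that a constitutive region overlapped, read 5′ to 3′ on the strand of the gene, from RefSeq (GRCh38.p14). For SYT1 that start lies inside the gene, whose outermost 5′ end is at 78863982, so its sequence is not upstream of the whole gene. Capitals mark every CG dinucleotide. MEI4, SPO11 and SPAG6 act in meiosis or in sperm, CATSPERT encodes a part of the sperm calcium channel, ZSCAN12 encodes a zinc finger protein, and ELAVL4 and SYT1 are neuronal genes.
MEI4, chr6:77650024-77650273, plus strand: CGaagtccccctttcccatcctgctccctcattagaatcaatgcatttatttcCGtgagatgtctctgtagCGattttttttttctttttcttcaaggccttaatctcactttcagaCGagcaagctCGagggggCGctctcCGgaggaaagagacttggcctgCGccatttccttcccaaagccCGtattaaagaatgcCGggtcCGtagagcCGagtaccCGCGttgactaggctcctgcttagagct
SPAG6, chr10:22345246-22345495, plus strand: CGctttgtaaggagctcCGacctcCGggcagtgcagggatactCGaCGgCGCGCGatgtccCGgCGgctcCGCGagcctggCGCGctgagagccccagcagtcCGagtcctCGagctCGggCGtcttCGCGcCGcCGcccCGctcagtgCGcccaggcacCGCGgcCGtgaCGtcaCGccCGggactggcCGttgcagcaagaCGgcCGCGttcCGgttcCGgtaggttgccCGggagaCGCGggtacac
SPO11, chr20:57329553-57329802, plus strand: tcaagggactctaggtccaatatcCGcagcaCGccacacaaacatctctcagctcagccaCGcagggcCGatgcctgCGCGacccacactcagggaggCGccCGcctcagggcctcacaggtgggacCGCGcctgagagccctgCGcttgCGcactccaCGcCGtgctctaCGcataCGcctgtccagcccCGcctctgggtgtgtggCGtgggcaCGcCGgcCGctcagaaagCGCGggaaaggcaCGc
ZSCAN12, chr6:28399748-28399997, minus strand: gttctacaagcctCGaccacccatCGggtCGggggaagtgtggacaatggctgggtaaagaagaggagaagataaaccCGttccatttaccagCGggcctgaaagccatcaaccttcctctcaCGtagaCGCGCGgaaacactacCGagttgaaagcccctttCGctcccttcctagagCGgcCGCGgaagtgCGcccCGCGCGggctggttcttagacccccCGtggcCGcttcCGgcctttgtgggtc
CATSPERT, chr2:201619179-201619428, minus strand: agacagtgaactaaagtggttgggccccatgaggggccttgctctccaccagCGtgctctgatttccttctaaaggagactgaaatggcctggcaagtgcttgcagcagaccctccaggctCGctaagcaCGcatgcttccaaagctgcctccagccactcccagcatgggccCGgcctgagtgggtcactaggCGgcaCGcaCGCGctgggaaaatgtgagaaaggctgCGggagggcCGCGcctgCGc
ELAVL4, chr1:50047805-50048054, plus strand: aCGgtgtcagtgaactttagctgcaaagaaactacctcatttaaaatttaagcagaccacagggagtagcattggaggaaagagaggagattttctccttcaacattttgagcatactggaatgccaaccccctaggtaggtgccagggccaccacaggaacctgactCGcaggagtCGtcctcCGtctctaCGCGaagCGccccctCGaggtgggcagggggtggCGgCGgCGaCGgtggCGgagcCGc
SYT1, chr12:78864524-78864773, plus strand: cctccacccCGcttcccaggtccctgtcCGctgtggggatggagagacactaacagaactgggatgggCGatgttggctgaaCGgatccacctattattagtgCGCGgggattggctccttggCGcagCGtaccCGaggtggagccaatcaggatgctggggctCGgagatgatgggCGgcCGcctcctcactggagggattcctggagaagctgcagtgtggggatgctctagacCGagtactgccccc

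These 7 sequences ranged from 50.4% GC with 14 CG dinucleotides at MEI4 to 72.8% GC with 39 at SPAG6. The SPO11 sequence held 24 and the ZSCAN12 sequence 21. CATSPERT had the fewest, 12, with 61.6% GC.

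Over all annotated starts, 1273 of 34961 promoter windows, 3.64%, were overlapped by a constitutive region, each window running from 250 bases before to 50 bases after a start. Median GC content was 64.7% in these windows and 58.7% in all windows, and the median number of CG dinucleotides was 21 and 14. Among coding genes alone the medians were nearer, 65% and 62.3% GC, and 22 and 21 CG dinucleotides. Over all starts the GC box GGGCGG, read on both strands, occurred in 60.3% of windows with a constitutive region and in 45% of all windows. The TATA box letters TATAAA occurred in 6.76% and 11.5%, and the CCAAT box letters in 28.3% and 34.6%. Windows overlapped by a region of a single list were much alike, with a median GC of 65.3% and the GC box in 61.2%, so these features did not set constitutive windows apart from windows with other peaks. Of windows with up to 40% GC, 4 of 4109 (0.0973%; 95% interval 0.0265 to 0.249) were overlapped by a constitutive region. The share was 6.73% (6.04 to 7.48) at 60 to 65% GC and 2.87% (2.31 to 3.51) above 75% GC. Windows overlapped by a region of any list followed the same course, with 0.876% at up to 40% GC, 28.6% at 60 to 65% and 20.7% above 75%. Of windows with any region, the constitutive part was 11.1%, 23.6% and 13.8% in these classes, and highest, 27.2%, at 45 to 50% GC. The course of the constitutive share with GC was thus largely that of all peaks. Each interval is exact binomial (95%) and reflects counting error alone, and neighbouring windows can share a region.

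**Figure D1:**
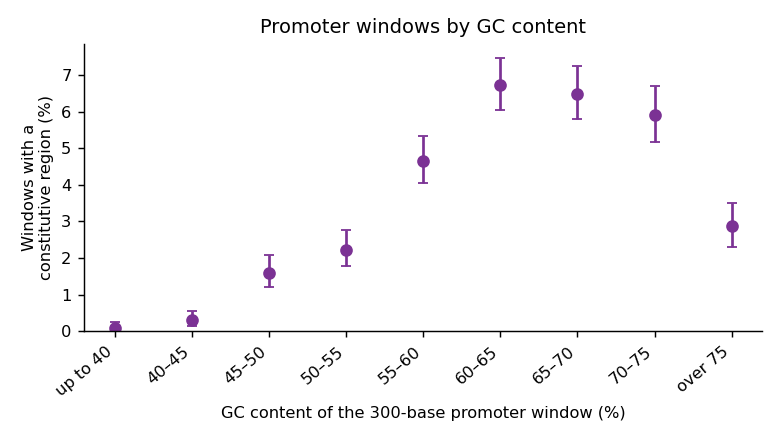
Share of promoter windows of 300 bases overlapped by a constitutive region (percent, y axis) by GC content of the window (percent, x axis); bars are exact 95% binomial intervals. The share climbs to 6.73% at 60 to 65% GC and is 2.87% above 75% GC.

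Constitutive regions were wider and had higher summits than the rest, which the rule favours: each joins peaks of 4 lists and must be called in all of them. Their median width was 837 bp (middle 50%, 679 to 1093 bp), against 688 bp for regions of 3 lists, 540 bp for regions of 2 and 392 bp for regions of 1. The number of fragments at the strongest summit, solved from the deposited fold and p of each peak, had a median of 8 with the combination, 9 with doxorubicin, 10 with OTS186935 and 11 with DMSO. In regions of a single list the medians were 6, 5, 6 and 6 in that order of libraries. The highest constitutive summits held 33 fragments with the combination, 65 with doxorubicin, 92 with OTS186935 and 109 with DMSO. Weak peaks were also included: the lowest summits held 4, 3, 3 and 3 fragments in the same order.

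**Figure D2:**
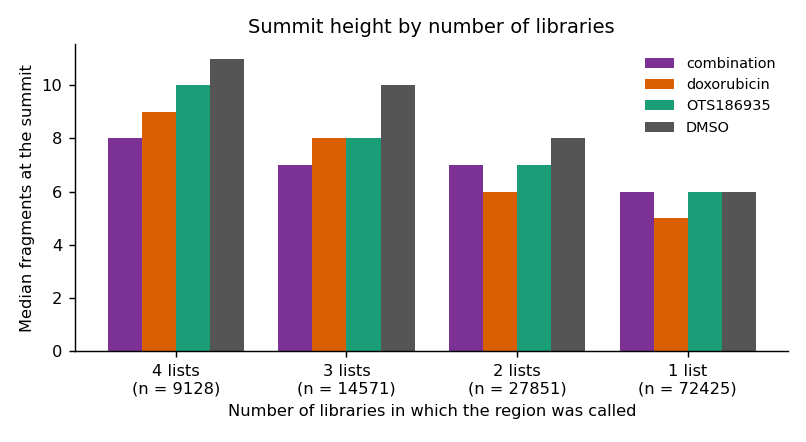
Median number of fragments at the strongest summit (y axis) in regions called in 4, 3, 2 or 1 libraries (x axis), for each library in which the region was called. In constitutive regions the medians are 8 with the combination, 9 with doxorubicin, 10 with OTS186935 and 11 with DMSO.

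The shortest list limited which regions could be constitutive. Of the peaks of each list, 32.4% (31.9 to 33.0) with the combination, 20.6% (20.3 to 21.0) with doxorubicin, 17.0% (16.7 to 17.3) with OTS186935 and 14.5% (14.2 to 14.7) with DMSO lay in constitutive regions. Of the 1000 peaks of highest fold in each list, 49.2%, 53.4%, 50% and 42.2% did, in the same order. Many of the strongest peaks of a library therefore lay at sites that lacked a call in at least 1 other. Just outside the rule, 14571 regions were called in exactly 3 lists. The missing list was the combination in 8307 of them (57.0%), doxorubicin in 3450 (23.7%), OTS186935 in 1816 (12.5%) and DMSO in 998 (6.85%). Where the combination was the missing list, median summits held 8 fragments with doxorubicin, 9 with OTS186935 and 10 with DMSO, each 1 fragment below the median of constitutive regions.

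The peaks of a constitutive region usually covered common ground, but their summits were spread. In 8650 regions (94.8%) at least 1 base was covered by a peak of all 4 lists, over a median of 353 bp. The strongest summits of the 4 libraries lay within a median span of 279 bp (middle 50%, 151 to 466 bp), and within 200 bp in 3223 regions (35.3%). Between libraries taken in pairs, the median distance ran from 100 bp for OTS186935 and DMSO to 130 bp for the combination and doxorubicin.

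Constitutive regions were not equally high under all treatments. Summit fragments were divided by the background floor of each library, the commonest background value in its list, which was 0.428 fragments with the combination, 0.389 with doxorubicin, 0.397 with OTS186935 and 0.454 with DMSO. On this scale the combination was lower than DMSO in 76.6% of constitutive regions, with a median log2 ratio of -0.40. Doxorubicin was lower than DMSO in 63.1%, with a median log2 ratio of -0.19. OTS186935 was lower than DMSO in 50.5%, with a median log2 ratio of -0.01, so about as many regions were higher as lower. The combination was lower than doxorubicin in 63.6%, with a median log2 ratio of -0.14. The combination was the lowest of the 4 libraries in 48.1% of constitutive regions, doxorubicin in 23%, OTS186935 in 15.5% and DMSO in 13.4%. These ratios share the DMSO library and the libraries have no replicates.

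Differences of 2-fold or more at single regions were read beside all regions called in both lists of a pair. The combination was 2-fold or more below DMSO in 14.0% of constitutive regions and in 10.1% of all 17312 regions called in both lists, and 2-fold or more above it in 0.679% and 1.64%. Doxorubicin was 2-fold or more below DMSO in 5.21% of constitutive regions and in 4.35% of all 25613, and above it in 1.77% and 2.36%. OTS186935 was 2-fold or more below DMSO in 3.06% of constitutive regions and in 2.85% of all 32277, and above it in 2.94% and 3.8%. The combination was 2-fold or more below doxorubicin in 6.76% of constitutive regions and in 5.52% of all 13237, and above it in 1.86% and 2.37%. The shares for OTS186935 and for doxorubicin thus lay near those of all regions called in both lists. All regions include the constitutive ones, which draws the shares together. In the other regions called in both lists, the shares 2-fold or more below were 5.68%, 3.88%, 2.77% and 2.77% in the above order of pairs. The shares 2-fold or more above were 2.71%, 2.68%, 4.15% and 3.50%.

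Chromosome ends were the places richest in constitutive regions. Telomeres are capped by the shelterin complex, and γH2AX is known to appear next to them when that cap fails. Of all regions within 0.2 Mb of a chromosome end, 32.0% (28.5 to 35.7) were constitutive, against 18% at 0.2 to 0.5 Mb, 10.0% at 0.5 to 1 Mb and 7.27% (7.08 to 7.46) beyond 20 Mb. The outermost 1 Mb held 750 of the 9128 constitutive regions (8.22%) and 4675 of all 123975 regions (3.77%). Of 41 chromosome ends, 40 held constitutive regions, the exception being the short-arm end of chromosome 1. The bin of 1 Mb with most constitutive regions was on chromosome 11 (134000001 to 135000000, GRCh38), with 48, followed by the first 1 Mb of chromosome 5 with 42 and of chromosome 2 with 41. Among regions whose peaks all reached a −log10 q of 5, 108 of 312 (34.6%; 29.3 to 40.2) lay in the outermost 1 Mb. At the same limit 319 of 1628 regions of 3 lists (19.6%) did, and 1797 of all 26912 regions (6.68%). No input library was used, so how much of this signal belongs to γH2AX was not tested. How surely reads could be placed at chromosome ends, and whether the signal relates to telomeres, was not tested either.

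Summits and their surroundings were both high at chromosome ends, and less so in the libraries with doxorubicin. In the outermost 0.2 Mb, median constitutive summits held 15 fragments with the combination, 26 with doxorubicin, 35 with OTS186935 and 40 with DMSO, while beyond 20 Mb they held 8, 8, 9 and 11. OTS186935 and DMSO were thus far above the combination near the ends and less far above it in the interior. Divided by the floors, the median summits of the combination and DMSO were 35.1 and 88.1 in the outermost 0.2 Mb. Beyond 20 Mb they were 18.7 and 24.2. The local background around constitutive peaks of the outermost 1 Mb had a median of 2.10 fragments with the combination, 2.77 with doxorubicin, 3.71 with OTS186935 and 4.06 with DMSO. Elsewhere it was 0.904, 0.828, 0.907 and 1.03 in the same order. Divided by the floors, background at the ends gave a median log2 ratio of -0.95 for the combination over DMSO, -0.34 for doxorubicin over DMSO, 0.06 for OTS186935 over DMSO and -0.62 for the combination over doxorubicin. The small positive value for OTS186935 rests on the division by the floors, since the undivided median was lower with OTS186935 than with DMSO. Away from the ends the first, second and last of these were -0.15, -0.09 and -0.04. The background around the peaks thus differed between libraries in the same order as the summits.

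This held at nearly every chromosome end. Among 38 ends with at least 5 constitutive regions, the median background ratio of the combination over DMSO was below 0 in 38, between -1.34 and -0.11. The ratio of doxorubicin over DMSO was below 0 in 36 of the 38, and that of the combination over doxorubicin in all 38. OTS186935 over DMSO was below 0 in 10 of 38, with a range of -0.34 to 0.17. The ends come from the same libraries and are not replicates of a condition. Away from the ends the combination over DMSO, doxorubicin over DMSO and the combination over doxorubicin had medians of -0.15, -0.09 and -0.04. Those are also below 0, so the sign alone does not set chromosome ends apart. Regions of like background were also compared, a choice made after these values were seen. Among regions with a DMSO background of 2 to 4 fragments, the summit ratio of the combination over DMSO had a median of -0.94 in 210 regions of the outermost 1 Mb and -0.50 in 1367 regions elsewhere. The corresponding medians for doxorubicin over DMSO were -0.36 and -0.22, and for OTS186935 over DMSO 0.05 and -0.07.

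**Figure D3:**
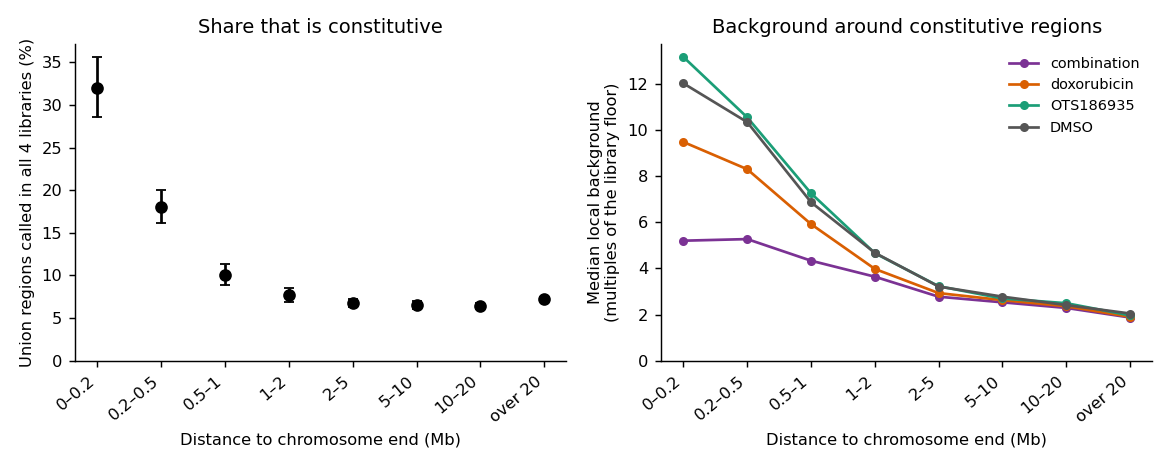
Left, share of all joined regions that were constitutive (percent, with exact 95% binomial intervals) by distance to the chromosome end (Mb). Right, median local background around constitutive peaks in multiples of the floor of each library (lines, 1 per library) by the same distance; in the outermost 0.2 Mb it is 5.2 with the combination, 9.47 with doxorubicin, 13.1 with OTS186935 and 12 with DMSO.

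The 5 constitutive gene-end regions with the lowest ratio of the combination over DMSO, whose order of these libraries is fixed by that choice, lay both at chromosome ends and in the interior. At SLC27A5 (chromosome 19, 58510744 to 58512244), which encodes a bile acid and fatty acid CoA ligase, summits held 12 fragments with the combination, 25 with doxorubicin, 36 with OTS186935 and 58 with DMSO. At KCNG2 (chromosome 18, 79798329 to 79799315), a potassium channel gene, they held 14, 31, 36 and 67 in the same order. At SLC6A12 (chromosome 12, 212736 to 214390), a betaine and GABA transporter gene, they held 15, 40, 59 and 63. The log2 ratios of the combination over DMSO were -2.19, -2.17 and -1.98. Folds over local background differed less between libraries, with 3.55, 3.97, 4.02 and 5.77 at SLC27A5 in the same order. They were 2.41, 2.72, 2.08 and 3.45 at KCNG2, and 2.88, 4.83, 5.12 and 5.73 at SLC6A12. The other members of this group, PSD3 and ID4, lay 19.1 and 19.8 Mb from a chromosome end. PSD3 had 4 fragments with the combination, 8 with doxorubicin, 9 with OTS186935 and 17 with DMSO, and ID4, a regulator of transcription factors, had 4, 5, 6 and 16. The widest constitutive region, 3078 bp, lay in IQSEC3 at the same end of chromosome 12. Its summits held 22 fragments with the combination, 41 with doxorubicin, 60 with OTS186935 and 69 with DMSO. Local background there was 7.20, 13.7, 21.6 and 24.9 fragments in that order. The folds were alike, 2.80, 2.86, 2.70 and 2.70, so the summits followed their surroundings.

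Between chromosomes, the constitutive share was highest on X (8.95%; 8.12 to 9.84) and chromosome 6 (8.88%; 8.20 to 9.60) and lowest on chromosome 13 (50 of 1520 regions, 3.29%; 2.45 to 4.31). Without the outermost 1 Mb the share on chromosome 13 was 2.83% and that on X 8.69%. Local background around constitutive peaks was also lowest on chromosome 13, in the combination, doxorubicin, OTS186935 and DMSO libraries 0.563, 0.592, 0.648 and 0.762 fragments, and its part in the low share was not tested. Chromosome X had a low background too, 0.711, 0.636, 0.696 and 0.828 in that order. By length, chromosome 19 held most, 7.24 constitutive regions per Mb, and chromosome 13 fewest, 0.437.

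Constitutive regions lay at gene ends more often than other regions did. Within 1 kb of either end of a protein-coding gene lay 1481 constitutive regions (16.2%; 15.5 to 17.0), against 12.1% of regions of 3 lists, 9.21% of regions of 2 and 7.36% of regions of 1. Gene bodies further in held 40.1% of constitutive regions and 49.7% of all regions. The 5′ end took more than the 3′ end: 9.89% of constitutive regions and 4.96% of all regions lay at a 5′ end, and 4.20% and 2.55% at a 3′ end. Wider regions reach a window more often, and by the DMSO summit alone the shares were 12.7% of constitutive regions and 9.13% of all regions with a DMSO peak. When peaks had to reach a −log10 q of 5, 10.9% of constitutive regions and 10.2% of all regions lay at gene ends, so the difference was small among the strongest peaks.

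Of 19974 protein-coding genes, 1581 (7.92%) had a constitutive region within 1 kb of an end. Among 15812 genes with a known strand, 956 (6.05%) had one at the 5′ end, 403 (2.55%) at the 3′ end and 101 at both. The 20 gene-end regions described next are those whose weakest fold of the 4 libraries was highest. Fold is the summit over its local background and ranks peaks within a list.

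Of these 20, the regions at MEI4, SPO11, SPAG6 and CATSPERT are given first, a choice made after the genes were seen. MEI4, which in mice is needed for the breaks that start meiotic recombination, had summits of 14 fragments with the combination, 9 with doxorubicin, 11 with OTS186935 and 12 with DMSO (chromosome 6, 77650202 to 77650821). The combination was highest there, and the lowest fold was 7.20. SPO11, which makes those breaks, had 10 fragments with the combination, 13 with doxorubicin, 15 with OTS186935 and 16 with DMSO (chromosome 20, 57329494 to 57330152). SPAG6, a protein of the sperm tail, had 12, 16, 23 and 19 in that order (chromosome 10, 22345057 to 22345962). At CATSPERT, next to the ciliary gene TMEM237, the 4 libraries were close, with 9, 9, 10 and 11 fragments.

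Among the other leading regions, SCAF4, which binds RNA polymerase II and acts in transcript ending, had the highest fold of the combination in the group, 10.98, with 16 fragments in the combination, 10 with doxorubicin, 13 with OTS186935 and 15 with DMSO. SRPRB, a subunit of the signal recognition particle receptor, had 12, 13, 15 and 17 in that order. ZMYND11, a reader of methylated histone H3.3 in gene bodies, lay near the end of chromosome 10 and had 12, 15, 12 and 21. COL12A1, a collagen gene, had DMSO lowest at its 3′ end, with 13 fragments with the combination, 10 with doxorubicin, 13 with OTS186935 and 9 with DMSO. VAMP7, a vesicle fusion gene of the second pseudoautosomal region of X, had the widest range in fragments, with 10 fragments with the combination, 14 with doxorubicin, 31 with OTS186935 and 38 with DMSO. The other leading regions were at PSKH2, BMP3, ZSCAN12, KIF16B, C8orf89, MCHR2, PLAAT5, RGS22, HMSD, MS4A13 and PABPC5. Across all 20, DMSO had the highest summit or shared it at every region but SCAF4, MEI4, BMP3, SPAG6, COL12A1 and MS4A13.

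**Figure D4:**
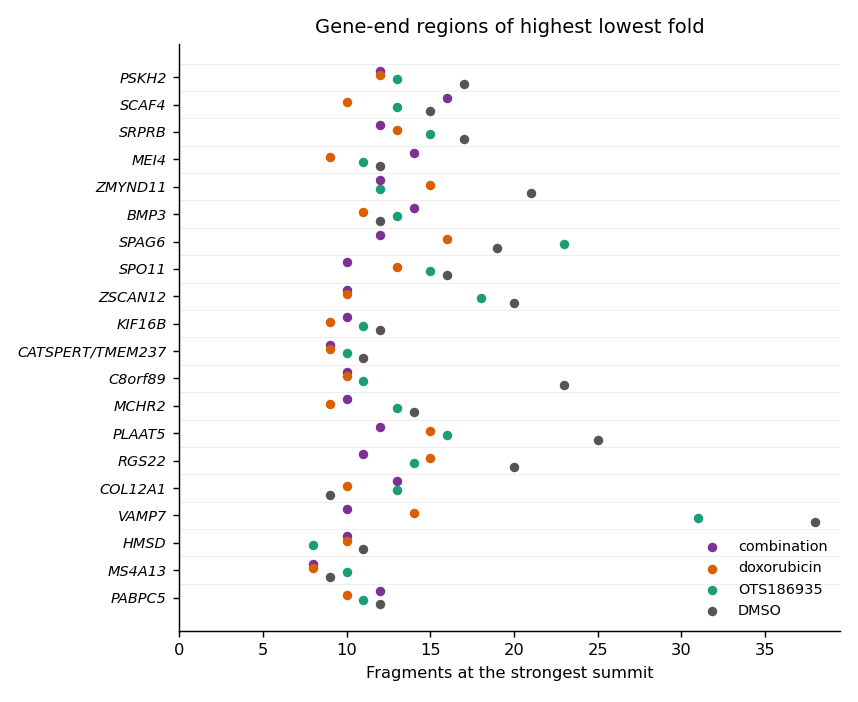
Fragments at the strongest summit (x axis) of each library in the 20 constitutive gene-end regions whose lowest fold was highest (rows, highest at the top). Most rows lie between 8 and 25 fragments; VAMP7 spreads from 10 with the combination to 38 with DMSO.

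Gene lists were set beside the 7.92% of all coding genes with a constitutive region. The neuronal list had been chosen with earlier results known in which such genes kept their peaks, so its count is no independent evidence. Of its 14 genes, 6 had one (42.9%; 17.7 to 71.1): ELAVL4, SYT1, NEFL, NEFM, SYN1 and NEFH, which encode an RNA-binding protein, 2 proteins of synaptic vesicles and 3 neurofilaments. SYT1 had summits of 10 fragments with the combination, 11 with doxorubicin, 8 with OTS186935 and 14 with DMSO. At NEFH they were 15, 11, 13 and 10 in that order, with the combination highest. Gene-end peaks of any kind lay at 8, 8, 7 and 8 of the 14 genes with the combination, doxorubicin, OTS186935 and DMSO. Over all coding genes the shares were 14.8%, 21.9%, 28.7% and 38.7% in the same order. Whether the lists differ from all genes in this was not tested.

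Of 54 genes of meiosis and of the piRNA pathway, which silences transposons in germ cells, 17 had a constitutive region (31.5%; 19.5 to 45.6), 15 of them at the 5′ end. This list was written after MEI4, SPO11 and DDX43 had been seen among the strong regions, and without those it held 14 of 51 (27.5%; 15.9 to 41.7). The theme of the list came from these same calls, so neither the full nor the reduced count is independent evidence. The genes were MEI4, SPO11, REC114, MEI1, MSH4, SYCP1, SYCP2, SYCP3, SYCE1 and SYCE2 of meiotic recombination and the synaptonemal complex, DDX43, ASZ1, TDRD9, PIWIL2 and MOV10L1 of the piRNA pathway or related RNA handling, and the germ cell RNA-binding genes DAZL and BOLL. REC114, a partner of MEI4, had 7 fragments with the combination, 8 with doxorubicin, 10 with OTS186935 and 10 with DMSO. At DAZL the counts were 7, 6, 12 and 9 in that order, and at SYCP1 only 5, 4, 4 and 5. The list thus held strong and weak regions. A region of 1 list or more lay at an end of 38 of the 54 genes (70.4%), against 49.9% of all coding genes. Of genes with any region, 44.7% in the list and 15.9% of all had a constitutive one.

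Other lists lay nearer the share of all genes or below it. Smooth muscle contractile genes had 3 of 20 (15%; 3.21 to 37.9): CALD1, DES and VCL. CALD1 had 7 fragments with the combination, 4 with doxorubicin, 8 with OTS186935 and 4 with DMSO. VCL had 8, 5, 5 and 6 in that order, so the combination was above DMSO at both. DES, the desmin gene, had more than 1 such region. Its far end (chromosome 2, 219425897 to 219426743) had 17 fragments with the combination, 7 with doxorubicin, 17 with OTS186935 and 27 with DMSO. The log2 ratio of doxorubicin over DMSO was -1.72 there, a region picked as an extreme of that ratio. Another DES region (219418142 to 219419229) had 11, 15, 18 and 16 fragments in that order, with doxorubicin close to DMSO. Collagen genes had 5 of 44 (COL12A1, COL11A1, COL6A6, COL6A3 and COL2A1), HOX genes 4 of 39 and p53 targets 2 of 24, BBC3 and AEN. BBC3, which encodes the death-promoting protein PUMA, had 11 fragments with the combination, 21 with doxorubicin, 14 with OTS186935 and 14 with DMSO at its 3′ end. AEN went the other way, with 9, 6, 11 and 12 in that order, doxorubicin being lowest. Immediate early and stress genes had 2 of 32, EGR4 and EGR1. Their gene-end peaks of any kind lay at 2 genes with the combination, 6 with doxorubicin, 11 with OTS186935 and 20 with DMSO. Those are 6.25%, 18.8%, 34.4% and 62.5% of the list, against 14.8%, 21.9%, 28.7% and 38.7% of all coding genes. The shares of all genes fall in the same order of libraries, and a difference from them was not tested. In every library such a peak lay at 1 of the 32 genes.

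Counts at genes of DNA repair and chromatin silencing were low, but these lists are too short to be told apart from all genes. No gene had a constitutive region among 33 of homologous recombination and H2AX signalling, 26 of H3K9 methylation and heterochromatin, 30 of mitosis and replication, 17 altered in leiomyosarcoma or 8 topoisomerase genes. Taken as 3 counts of the list, a count of 0 allows shares of up to 9.09%, 11.5%, 10.0%, 17.6% and 37.5%; the exact intervals in the plot of gene lists reach 10.6%, 13.2%, 11.6%, 19.5% and 36.9%. Each of these limits lies above the 7.92% of all genes, so lists of this length cannot be told apart from it. A gene-end peak in every library, in any region, lay at 1 gene of homologous recombination and H2AX signalling (3.03%). The same held for 1 gene of H3K9 methylation and heterochromatin (3.85%), against 7.59% of all coding genes. APTX, which repairs stalled ligation products, was the only one of 22 PARP and end joining genes, with 5 fragments with the combination, 6 with doxorubicin, 8 with OTS186935 and 9 with DMSO. IFITM1 was the only one of 25 interferon response genes. Cytosolic ribosomal protein genes had 2 of 85 (2.35%; 0.286 to 8.24), proteasome genes 1 of 39 and mitochondrial ribosomal protein genes 2 of 77, these last lists having been added with the germ line list. Clusters of near-identical genes, where reads are hard to place, have uncertain counts: 17 of 246 zinc finger genes of chromosome 19 (6.91%; 4.08 to 10.8), 8 of 392 olfactory receptor genes (2.04%; 0.885 to 3.98), 4 of 69 replication-dependent histone genes (5.80%; 1.60 to 14.2) and 2 of 53 clustered protocadherin genes (3.77%; 0.460 to 13.0). Of these, the olfactory receptor genes had an interval below 7.92%, but few had any region, and 21.1% of those had a constitutive one, against 15.9% of all genes with any region. Among the histone genes H2BC12 and H4C9 shared 1 region, and among the olfactory receptor genes OR3A2 and OR1R1 did.

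**Figure D5:**
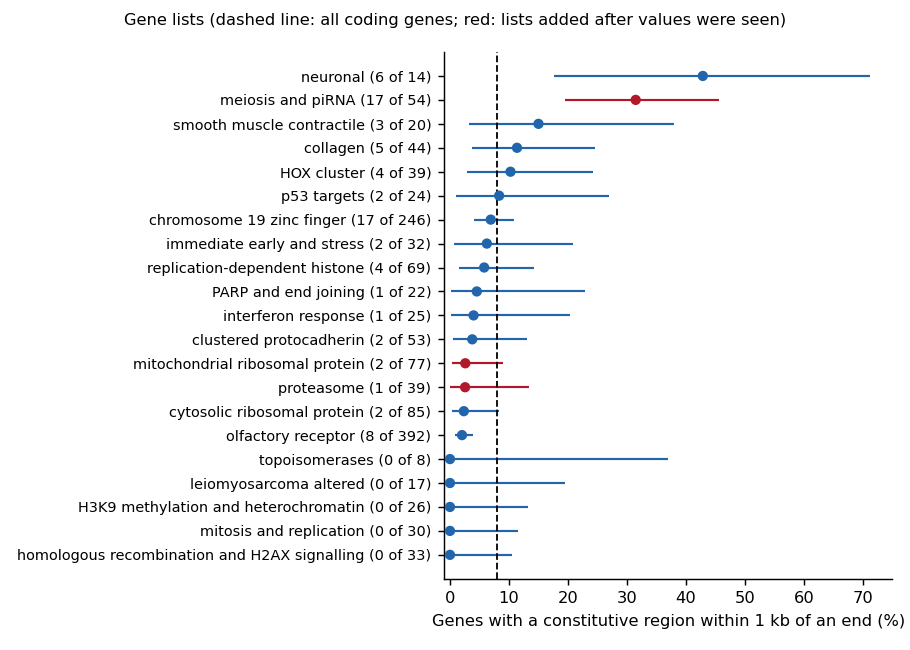
Percent of the genes of each list with a constitutive region within 1 kb of an end (points, x axis) with exact 95% binomial intervals (lines); the dashed line is the 7.92% of all coding genes and red marks lists added after values were seen. The neuronal list (42.9%) and the list of meiosis and piRNA genes (31.5%) have intervals wholly above the dashed line. The neuronal list, though not red, was chosen with earlier results of these data known. The list of meiosis and piRNA genes was written after members had been seen, so neither interval is independent evidence.

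Among constitutive gene-end regions, single genes differed between libraries in both directions, and highest and lowest here mean among those regions alone. Summit fragments at INSL6, a relaxin family gene of the testis, were 7 with the combination, 15 with doxorubicin, 6 with OTS186935 and 4 with DMSO, the highest log2 ratio of doxorubicin over DMSO, 2.13. At CMYA5, a muscle gene, they were 7, 3, 7 and 16 in that order, the lowest ratio of that pair, -2.19. TFB2M, a mitochondrial transcription factor gene, had 7, 4, 7 and 3, the highest ratio of the combination over DMSO, 1.31. LOC124902393 had 7, 9, 17 and 6, the highest ratio of OTS186935 over DMSO, 1.70, and IRAK3, an inhibitor of innate immune signalling, had 6, 5, 3 and 12, the lowest, -1.81. TSR2, AMIGO1 and ADAMTS15 shared the highest ratio of the combination over doxorubicin, 1.45, each on 3 or 4 doxorubicin fragments. Such counts are small, and these extremes were picked from many regions.

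Neighbouring genes sometimes carried constitutive regions together. The longest run was of 7 adjacent coding genes with 7 regions on X (118727606 to 119454478): IL13RA1, ZCCHC12, LONRF3, CT47C1, KIAA1210, PGRMC1 and SLC25A43. CT47C1 belongs to a family of near-identical copies, so its region is uncertain. Runs of 4 genes on 2 regions lay at CKLF to CMTM2 on chromosome 16, at GPR39 to NCKAP5 on chromosome 2 and at FUNDC2 to BRCC3 on X.

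Away from gene ends, the region with the highest weakest fold lay in CROCCP2, a transcribed pseudogene beside NBPF1 on chromosome 1 (16618721 to 16619263), where near-identical copies make the placing of reads uncertain. It had 27 fragments with the combination, 43 with doxorubicin, 30 with OTS186935 and 37 with DMSO, and folds of 10.4, 14.8, 10.96 and 10.3. Doxorubicin was thus the highest there. The other 7 leading regions of this kind all lay at chromosome ends. They were beside VAMP7 on X, in the immunoglobulin heavy chain locus at the end of chromosome 14, and at the ends of chromosomes 2, 9, 10 and 11. In the heavy chain locus (106830656 to 106831720) summits held 20 fragments with the combination, 37 with doxorubicin, 51 with OTS186935 and 58 with DMSO.

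Of 1558 microRNA hairpins, 21 (1.35%) were overlapped by a constitutive region and 161 by a region of any list, so 13.0% of those with any region had a constitutive one. The mature sequences below are of the better known of these, chosen after the overlap was seen, from RefSeq, with the seed (bases 2 to 8) in capitals; miR-2682-5p and miR-34b-5p share the seed AGGCAGU.
hsa-miR-137-3p: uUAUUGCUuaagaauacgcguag
hsa-miR-2682-5p: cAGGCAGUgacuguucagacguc
hsa-miR-34b-5p: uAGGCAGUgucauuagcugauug
hsa-miR-9-5p: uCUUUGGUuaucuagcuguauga
hsa-miR-26a-5p: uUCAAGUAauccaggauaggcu

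MIR137 and MIR2682 lay in 1 region of 1487 bp on chromosome 1, with summits of 10 fragments with the combination, 13 with doxorubicin, 14 with OTS186935 and 14 with DMSO. miR-137 and miR-9 act in neural development. MIR34B, a p53 target, had 11, 9, 15 and 15 fragments in that order, and MIR9-1 had 9, 8, 9 and 17. At MIR187 the combination was highest, with 13 fragments against 7 with doxorubicin, 8 with OTS186935 and 12 with DMSO. Peaks at a hairpin say nothing of the level of the microRNA, which was not measured.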

How the data were processed

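The data are 4 γH2AX ChIP-seq peak lists from SK-UT-1. Per the submitters' processing notes, the build was hg38 and the tools were MACS2 2.2.7.1, Bowtie2 2.4.2, bedtools 2.30.0 and Picard 2.25.3; the sources used here give no roles, options, depth or input. The deposited lists hold, per summit, a fold ratio over local background, a −log10 p and a −log10 q as the authors' peak caller wrote them. The score deposited by the authors was not used for results. Each condition had 1 library.

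Members, gene lists and the rules for named genes were chosen with earlier results of these data known. Genes named beyond those rules (20 gene-end regions, 8 others, up to 4 per list, 5 extremes per ratio) were picked after their values were seen. Whole summit fragments and background were solved from fold and −log10 p, taking fold as fragments + 1 over background + 1 and p as Poisson; all peaks were solved within 0.002. Up to 2109 peaks of a list had a second whole solution. This precision is that of counts of a few to about 100 fragments. Gene ends came from a RefSeq table (GRCh38.p14), strands from its promoter table; exons were not told apart, and chromosome ends are the highest coordinates in the table or lists. Python 3.11.15, pandas 2.3.3, numpy 2.4.6 and scipy 1.17.1 were used; joining was tested on simulated data against bedtools 2.31.1. Alternatives are given in the closing section.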

Additional observations from a re-analysis of the deposited data

Results flagged for a closer look

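Around constitutive regions of the outermost 1 Mb of chromosomes, local background differed between the libraries with and without OTS186935 to an unequal extent. Divided by the floor of each library, the median log2 ratio of the combination over doxorubicin was -0.616, and that of OTS186935 over DMSO was 0.0579, close to 0 but of the other sign. The other sign rests on that division: undivided, the medians were 2.10 fragments with the combination and 2.77 with doxorubicin, and 3.71 with OTS186935 and 4.06 with DMSO. Both pairs differ by OTS186935, the first with doxorubicin in both libraries and the second without it. With 1 library per condition the difference between these ratios was not tested.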

How the results depend on the processing

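The number of constitutive regions, 9128, was 312 when peaks had to reach a −log10 q of 5, 5927 at a limit of 2, 4779 with lists of equal length and 5784 with a reciprocal overlap of 50% with each DMSO peak; leaving out 1 list gave 10126 to 17435, the highest without the combination. Joining peaks within 1 kb, asking for a common base or using all contigs stayed within 1.5 times. The gene-end share, 16.2%, was 10.9% at a −log10 q of 5, 22.1% with windows of 2.5 kb and 12.7% by the DMSO summit. Genes with a constitutive region, 1581, numbered 36 at a −log10 q of 5, 1022 at 2 and 823 with lists of equal length. With summits over local background, the combination was lower than DMSO in 65.2% of regions, doxorubicin lower than DMSO in 55.2% and the combination lower than doxorubicin in 60.9%; with the deposited fold these were 73.9%, 66.8% and 57.8%, and OTS186935 was lower than DMSO in 58.3%. Without the outermost 1 Mb, a choice made after seeing the data, they were 74.9%, 61.5% and 61.6%. OTS186935 was below DMSO in 49.7% of regions by local background, so no direction holds there. Nearest summits lay within 200 bp in 39.8% of regions. The causes were not tested. The alternative of 300 bases around the DMSO summit was not run, since no genome sequence was used. No paired analysis was possible because each condition had 1 library. Depth limits single regions, most of which rest on about 10 fragments.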

Other observations

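Outside chromosomes 1 to 22 and X, on chromosome M and contigs not placed on a chromosome, 36 of 99 joined regions (36.4%) were called in all 4 lists. Their summits held a median of 9.5 fragments with the combination, 11 with doxorubicin, 14.5 with OTS186935 and 18 with DMSO, and up to 142, 106, 120 and 161 in that order. Such contigs hold repeated sequence, and the placing of reads there is uncertain.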
